A study of Homo sapiens with 4 samples.

Results

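The genes described here are those for the MuvB complex and the factors that bind it in turn during the cell cycle. They comprise MYBL2 (B-MYB), MYBL1 (A-MYB) and FOXM1, the MuvB subunits LIN9, LIN37, LIN52, LIN54 and RBBP4, and RBL2 (p130). The members were the rows of the count table whose gene symbol equals a listed name. All 9 were found, in 1 row each, among 56304 gene rows. All 9 also passed the low-count filter, which left 15529 genes tested. The libraries came from MV3 H2B-GFP cells, an established line of highly metastatic human melanoma that stably expresses a green fluorescent histone in every group. Spheroids of 50000 cells and 1 mm diameter were embedded in collagen I and dissected on day 2 without further treatment. The core was removed with a 1 mm punch and the invasion zone around it with a 3 mm punch, with 2 libraries per zone. The punch cuts vertically, so invading cells above and below the spheroid could remain in the core sample. MV3 is 1 cell line, and the labels do not say whether replicates came from separate cultures, so that p-values measure only the spread between these libraries.

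MuvB is a scaffold that switches between repression and activation. In resting and early G1 cells it joins p130, E2F4 or E2F5 and a DP protein in the DREAM complex, which keeps cell cycle genes silent. As cells enter S phase the pocket protein leaves and B-MYB takes its place on MuvB, and FOXM1 joins later, when the genes for mitosis are activated. LIN54 is the subunit that contacts DNA, at a short promoter element called the cell cycle genes homology region (CHR). The transcripts of MYBL2 and FOXM1 are themselves cell cycle regulated, whereas the MuvB subunits are regarded as present throughout the cycle. The comparison therefore asks whether the cycle-regulated factors and the constitutive subunits differ between the core and the invasion zone to the same degree.

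Depth was 36363358 and 14983135 counts in the core libraries and 37591782 and 11789243 counts in the invasion zone libraries, replicate 1 before replicate 2 in each. Levels are given as normalized CPM, the usual count of a gene relative to the depth of its library, after TMM scaling, which corrects for differences in RNA composition. Melanocyte markers were at or near 0, with SOX10 and TYR at 0 counts in all 4 libraries and MITF at most 3.37 CPM, while AXL and EGFR, markers of dedifferentiated melanoma, reached at least 629 and 135 CPM. Of the other dedifferentiation markers NGFR was at most 0.0663 CPM, and WNT5A had 180 and 81.3 CPM in the core, against 54.1 and 17.9 CPM in the invasion zone. Among markers of other cells EPCAM, CDH1, KRT19, PTPRC, CD3E, LYZ and CDH5 were at most 0.199 CPM, whereas KRT8 lay between 7.83 and 15.1 CPM and PECAM1 between 0.926 and 18.1 CPM, both higher in the core libraries. The part of these 2 genes in the results was not tested.

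MYBL2 (ENSG00000101057) lies on chromosome 20 of GRCh38, 43667019 to 43716495, and encodes B-MYB, the Myb protein of proliferating cells. It had 46.2 and 94.7 CPM in core replicates 1 and 2, and 181 and 238 CPM in invasion zone replicates 1 and 2. The zones did not overlap, and the core libraries themselves differed by 2.05-fold. The core mean of 70.4 ± 34.3 CPM (SD, n = 2) stood against an invasion zone mean of 209 ± 39.8 CPM. The log2 fold change, positive where the invasion zone was higher, was 1.58 (standard error 0.36), rank 117 from the top among the 15529 genes. It was 1.16 without core replicate 1 and 2.19 without core replicate 2. In bulk RNA, fewer cells in the phases that transcribe a gene and less of its RNA per cell cannot be told apart. Its promoter holds a GC-rich element of the kind bound by E2F proteins, shown here because E2F and DREAM are known to act on MYBL2. The stretch below is the 80 bases before the start site given by RefSeq on GRCh38.p14, plus strand, chr20:43667034-43667113. Its E2F-type letters are in capitals. The RefSeq start lies downstream of the gene start given above (43667019), so by that annotation the stretch is inside the gene.
MYBL2: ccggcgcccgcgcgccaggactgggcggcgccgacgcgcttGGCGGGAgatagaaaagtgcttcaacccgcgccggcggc
The letters GGCGGGA, on either strand, were present in 15.4% of all 35116 RefSeq promoter windows of 300 bases, which run from 250 bases before to 50 after the start. Among the windows of tested genes the share was 22.8%. A match describes the letters only and not a bound site. RefSeq windows were matched for 7 of the 9 members, without FOXM1 and MYBL1.

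FOXM1 (ENSG00000111206; chromosome 12, 2857680 to 2877174) encodes the forkhead factor that joins B-MYB and MuvB on mitotic genes. Its level was 30.4 and 55.1 CPM in the core, against 106 and 111 CPM in the invasion zone. Its invasion zone libraries were nearly equal, and again above both core libraries. The log2 fold change was 1.35 (standard error 0.29), rank 279, and was 0.99 without core replicate 1 and 1.84 without core replicate 2. ITFG2, on the opposite strand, shares 782 of its 4919 exonic bases, and because no source used here gives the strand setting of the counting, reads in that stretch cannot be assigned with certainty. The study's text names MYBL2 and FOXM1 among its upregulated genes from these same libraries, so their direction is not independent evidence.

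MYBL1 (ENSG00000185697; chromosome 8, 66562175 to 66614247) encodes A-MYB, the close relative of B-MYB best known from germ cells. It had 27.4 and 55.7 CPM in the core, against 68.2 and 109 CPM in the invasion zone. The groups did not overlap, but core replicate 2 came close to invasion zone replicate 1. The log2 fold change was 1.10 (standard error 0.39), rank 563. Leaving out core replicate 1 lowered it to 0.68, leaving out invasion zone replicate 2 lowered it to 0.72, and leaving out core replicate 2 raised it to 1.70. MYB, the founding member of the family and no member here, was nearly silent, with 1.04 to 2.53 CPM and overlapping zones.

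LIN9 (ENSG00000183814; chromosome 1, 226231149 to 226309869) encodes the subunit through which B-MYB docks on MuvB. It differed most among the subunits, with 8.77 and 13.5 CPM in the core, against 18.0 and 22.4 CPM in the invasion zone. The log2 fold change was 0.87 (standard error 0.28), and was 0.58 without core replicate 1. LIN52 (ENSG00000205659; chromosome 14, 74084956 to 74201493), the adaptor that links MuvB to either the pocket protein or B-MYB, had 26.9 and 31.4 CPM in the core, against 41.4 and 43.3 CPM in the invasion zone. LIN54 (ENSG00000189308; chromosome 4, 82909973 to 83012926), the DNA-binding subunit, had 28.8 and 33.6 CPM in the core, against 41.8 and 42.2 CPM in the invasion zone. For these 3 subunits both invasion zone libraries were above both core libraries. The log2 fold changes of LIN52 and LIN54 were 0.54 (standard error 0.16) and 0.43 (standard error 0.16).

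RBBP4 (ENSG00000162521; chromosome 1, 32651142 to 32686211) encodes a histone-binding WD40 protein that MuvB shares with many chromatin complexes. Its 144 and 148 CPM in the core stood against 137 and 134 CPM in the invasion zone. Both invasion zone libraries were lower, by a log2 fold change of -0.10 (standard error 0.13) that is smaller than its error. SYNC, on the opposite strand, shares 2160 of its 9470 exonic bases, and GENCODE lists 7 pseudogenes named after RBBP4, so that its counts are less certain. LIN37 (ENSG00000267796; chromosome 19, 35748361 to 35754519), a subunit needed for repression by DREAM, could not be resolved at this depth. It had 56 and 13 counts in the core and 61 and 18 counts in the invasion zone, or 1.56, 0.862, 1.63 and 1.51 CPM in that order, and the zones overlapped. Its log2 fold change of 0.28 had a standard error of 0.42. Other annotated genes cover 1522 of its 2820 exonic bases (54.0%), on both strands.

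RBL2 (ENSG00000103479; chromosome 16, 53433977 to 53491648) encodes p130, the pocket protein of DREAM in resting cells. It was the member with the most negative difference, with 128 and 110 CPM in the core, against 87.0 and 79.1 CPM in the invasion zone. Both invasion zone libraries were below both core libraries. The mean went from 119 ± 12.8 CPM (SD, n = 2) to 83.0 ± 5.56 CPM, a log2 fold change of -0.52 (standard error 0.15). AKTIP and an unnamed gene on the opposite strand share 1330 of its 8110 exonic bases.

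**Figure D1:**
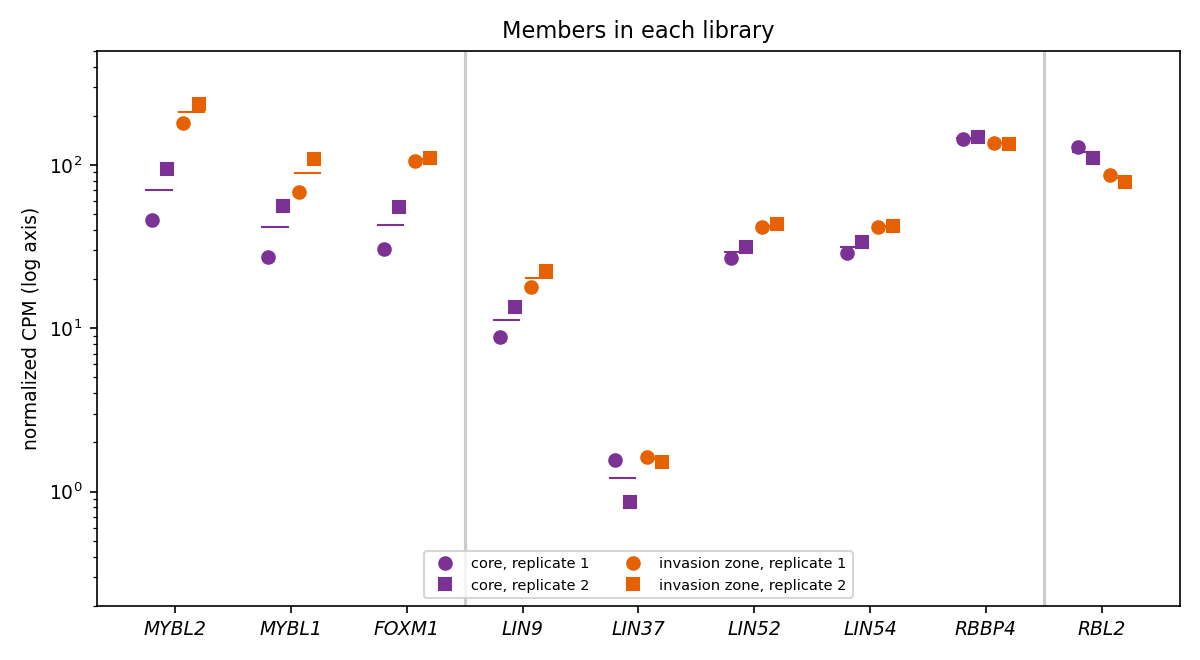
Normalized CPM of the 9 members (horizontal axis) in each of the 4 libraries, on a log axis. Colours mark the zone, symbols the replicate and short lines the mean of 2 libraries. The 3 factors on the left show wide gaps between zones and between core replicates, RBBP4 stays between 134 and 148 CPM, and RBL2 is lower in both invasion zone libraries.

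Without a replicate term, the quasi-likelihood test of edgeR called 0 of the 9 members at an adjusted p under 0.05, as it called 0 of all 15529 genes (0%). The adjusted p of the members ran from 0.112 for FOXM1 and 0.115 for MYBL2 to 0.714 for LIN37. The smallest adjusted p of any gene was 0.103, and at an unadjusted p under 0.05 there were 1905 higher and 2045 lower genes. The replicates differed in depth, and the column names give the 2 libraries of each replicate neighbouring library numbers. The same test was therefore also run with the replicate number as a block, a pairing that no label states. That fit leaves 1 residual degree of freedom, against 2 without the block. Its small adjusted p-values thus rest on variation estimated across genes and on the assumed pairing. With the replicate block 6 members rose, namely MYBL2 (adjusted p = 0.000154), MYBL1 (0.000202), FOXM1 (0.000434), LIN9 (0.00233), LIN52 (0.0046) and LIN54 (0.0134), against 20.0% of all genes tested. RBL2 fell (0.00154), against 20.1% of all genes. RBBP4 (0.314) and LIN37 (0.606) were not called. DESeq2, the tool of the study, called MYBL2 (0.000508), FOXM1 (0.000861) and MYBL1 (0.0356) without a replicate term, against 6.67% of the genes to which it gave an adjusted p. It called neither the MuvB subunits nor RBL2 (0.0812).

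In both replicates the point value of each factor was above that of each subunit, although the counting intervals of LIN9 in both replicates and of LIN37 in replicate 2 overlapped those of the nearest factors. The MYBL2 level in the invasion zone was 3.93-fold that of the core in replicate 1 and 2.51-fold in replicate 2. For FOXM1 these were 3.47-fold and 2.01-fold, and for MYBL1 2.48-fold and 1.97-fold. Among the subunits the ratio was highest for LIN9 in replicate 1 (2.05-fold, and 1.65-fold in replicate 2) and for LIN37 in replicate 2 (1.76-fold, from 13 and 18 counts). LIN52 (1.54-fold and 1.38-fold) and LIN54 (1.45-fold and 1.25-fold) differed less. On the log2 scale the exact 95% counting interval of LIN37 spanned -0.49 to 0.61 in replicate 1 and -0.30 to 1.96 in replicate 2, both including 0. RBBP4 differed by -0.07 (-0.13 to -0.01) and -0.14 (-0.23 to -0.05), a gap small beside those of the factors though outside counting error. RBL2 was at 0.678-fold and 0.718-fold. The difference was larger in replicate 1 for all 3 factors, where the core libraries were 1.81-fold to 2.05-fold apart, core replicate 2 being higher. These intervals, by the Clopper-Pearson method, cover counting error only.

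**Figure D2:**
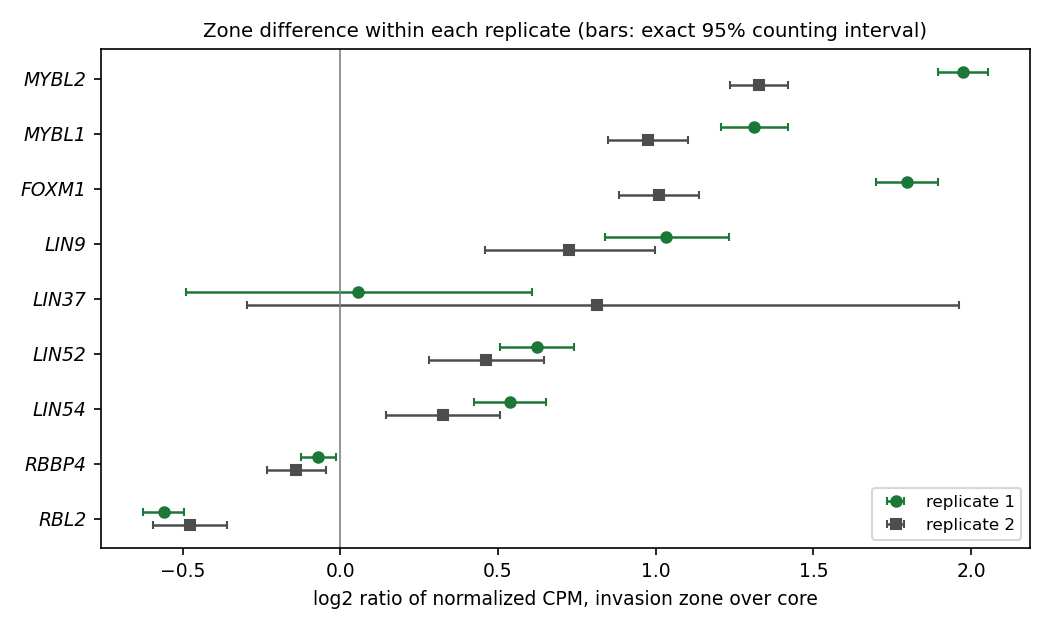
Log2 ratio of the invasion zone over the core (horizontal axis) for each member within replicate 1 (circles) and replicate 2 (squares), with exact 95% counting intervals as bars. MYBL2, FOXM1 and MYBL1 lie between 0.98 and 1.97, LIN52 and LIN54 between 0.33 and 0.62, RBBP4 just below 0 and RBL2 between -0.56 and -0.48. In replicates 1 and 2, LIN9 lies at 1.03 and 0.73, and LIN37 at 0.06 and 0.81 with wide bars.

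The zones were separate, with the invasion zone higher, in 3 of the 3 factors and 3 of the 5 subunits, against 28.1% of all genes tested. They were separate with the invasion zone lower in RBBP4 and RBL2, against 30.3%. The 3 factors had a median log2 fold change of 1.35 and the 5 subunits one of 0.43, against -0.0077 over all genes. These counts and medians describe the chosen members and carry no test.

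To compare levels between genes, CPM was divided by the exonic length in kilobases (RPKM computed from GENCODE release 44). In the core the highest levels were those of MYBL2 (16.6 and 34.1 RPKM), RBBP4 (15.2 and 15.6) and RBL2 (15.8 and 13.6), of which RBBP4 and RBL2 overlapped. FOXM1 (6.19 and 11.2), LIN52 (7.09 and 8.30), MYBL1 (3.79 and 7.69) and LIN54 (4.26 and 4.97) followed, each overlapping its neighbour in that order. LIN9 (1.98 and 3.05) and LIN37 (0.555 and 0.306) were lowest and apart from the others. The order differed in the invasion zone. MYBL2 stood alone at 65.3 and 85.6 RPKM, FOXM1 was next at 21.5 and 22.5, and both were above RBBP4 at 14.5 and 14.2. MYBL1 (9.42 and 15.1) overlapped RBBP4, LIN52 (10.9 and 11.4) and RBL2 (10.7 and 9.75), and LIN54 (6.19 and 6.24), LIN9 (4.04 and 5.04) and LIN37 (0.577 and 0.537) stayed below. Annotated length need not equal the length of the transcripts that MV3 cells make, so that distances between genes are approximate. The LIN37 level is also uncertain because other annotated genes share 54.0% of its exonic bases.

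The ratio of 2 such levels in 1 library compares the transcripts of genes for MuvB and its partners. Protein levels and binding to MuvB were not measured. B-MYB and p130 transcripts were at a ratio of 1.05 and 2.51 in the core libraries but 6.09 and 8.77 in the invasion zone libraries. MYBL2 over LIN9 was 8.42 and 11.2 in the core and 16.2 and 17.0 in the invasion zone, and FOXM1 over LIN9 was 3.13 and 3.67 against 5.31 and 4.47. In all 3 ratios the zones did not overlap. The ratios between factors were lower in the invasion zone in both replicates. FOXM1 over MYBL2 was 0.372 and 0.328 in the core against 0.329 and 0.263 in the invasion zone, a log2 difference of -0.18 within replicate 1 and -0.32 within replicate 2, although the pooled zones overlapped. MYBL1 over MYBL2 was 0.228 and 0.225 against 0.144 and 0.177, without overlap. The geometric mean of the 3 factors over that of the 5 subunits was 2.11 and 3.98 in the core and 5.04 and 6.32 in the invasion zone. The mean of the subunits includes the uncertain LIN37 level. With 2 libraries per zone the exact permutation test of such a ratio cannot reach the threshold, so none was run.

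The partners and regulators of DREAM that are not members formed a list of 13 genes, all tested. With the replicate block 8 rose and 0 fell, against 20.0% and 20.1% of all genes, and without it 0 were called. Their median log2 fold change was 0.33. It fell to 0.23 when core replicate 1 was dropped, and to 0.22 when the dropped library was invasion zone replicate 2. Dropping replicate 1 of the invasion zone raised the median to 0.44, and dropping core replicate 2 raised it to 0.50. Of these genes 2 are also in the G1/S list described further on. E2F4, the E2F of DREAM, went from 107 and 126 CPM to 144 and 179 CPM (log2 fold change 0.47, adjusted p = 0.00196 with the block). Its relative E2F5 had 0.18 and was not called. The DP partners diverged, since TFDP1 rose with the block (0.80) while TFDP2 had -0.16 and was not called. RBL1, the gene of the p107 pocket protein, had 32.1 and 39.3 CPM in the core, against 55.6 and 74.9 CPM in the invasion zone. It rose with the block, with a log2 fold change of 0.87, while RBL2, also a pocket protein gene, fell. RBBP7, the paralog of RBBP4, had 0.30 and rose with the block. DYRK1A, the kinase that phosphorylates LIN52 to assemble DREAM, had 12.2 and 11.5 CPM in the core, against 12.5 and 13.0 CPM in the invasion zone (0.10, adjusted p = 0.664 with the block). CDKN1A (p21), which keeps pocket proteins unphosphorylated, had -0.02, changed sign with single libraries left out, and was not called. The kinases and cyclins that act against pocket proteins, CDK2 (0.98), CCNE1 (0.87), CCND1 (0.47) and CDK4 (0.33), rose with the block. The CDK4 value was 0.19 without core replicate 1, 0.21 without invasion zone replicate 2 and 0.50 without core replicate 2, and that of E2F4 0.31 without invasion zone replicate 2.

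A list of 11 genes held regulators of B-MYB and FOXM1, together with CENPF, which FOXM1 activates, and MYB, the relative described above. Of these genes 9 rose and 0 fell with the block, against 20.0% and 20.1% of all genes, and 0 were called without it. The count is therefore not one of regulators alone. Of the 11, 5 are also in the G2/M list. The median log2 fold change was 0.94, and it was 0.61 without core replicate 1. CCNA2 and CDK1, the cyclin and kinase that activate both factors by phosphorylation, had 1.33 and 1.39. CDK1 stood at 92.6 and 187 CPM in the core, against 316 and 414 CPM in the invasion zone. PLK1, a mitotic kinase that activates FOXM1, had 1.32 and cyclin B1 (CCNB1) 1.16. CENPF, a kinetochore gene that FOXM1 activates, had 0.95. Without core replicate 1 these were 0.78 for PLK1, 0.68 for CCNB1 and 0.52 for CENPF. Without core replicate 2 they were 2.21, 1.90 and 1.604. CCNF, the gene of cyclin F, which restrains B-MYB, had 38.4 and 65.3 CPM in the core, against 96.1 and 102 CPM in the invasion zone (0.94, and 0.61 without core replicate 1). SKP2 (0.78), a ubiquitin ligase subunit, and USP7 (0.35), a deubiquitinase reported to stabilize FOXM1, rose with the block as well. FZR1, the activator of the anaphase-promoting complex that marks FOXM1 for destruction in G1, had 65.1 and 70.0 CPM in the core, against 59.6 and 51.0 CPM in the invasion zone. Its log2 fold change was -0.28 and it was not called with the block (adjusted p = 0.0653).

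The genes that B-MYB with MuvB and FOXM1 are known to activate were described by a list of 48 genes of G2 and mitosis, and those known to be controlled by E2F and DREAM at the G1/S boundary by a list of 38. Without the block 0 genes of either list were called. Of the 48, 47 rose and 1 fell with the block, against 20.0% and 20.1% of all genes, and of the 38, 37 rose and 0 fell. The median log2 fold change without the block was 1.29 and 1.08, and without core replicate 1 it was 0.86 and 0.81. The study's text names 5 of the first and 6 of the second from these libraries. CDC25C (1.68), CENPE (1.56) and AURKB (1.55) differed most in the G2/M list, AURKB being at 1.01 without core replicate 1 and 2.40 without core replicate 2. CDC25C, the phosphatase that triggers mitosis, had 4.33 and 9.62 CPM in the core, against 17.7 and 25.7 CPM in the invasion zone. CKAP2 (0.80) had the smallest positive difference. The exception was CDC25B, another phosphatase of the family, with 124 and 81.8 CPM in the core, against 89.7 and 61.4 CPM in the invasion zone. It fell with the block (log2 fold change -0.44, adjusted p = 0.00359), although the zones overlapped. Its size varied with single libraries. Leaving out core replicate 1 gave -0.10 and leaving out core replicate 2 gave -0.71, while leaving out invasion zone replicate 1 gave -0.75 and replicate 2 of that zone -0.20. In the G1/S list CDC45 (1.69), E2F1 (1.65) and E2F2 (1.53) differed most and SLBP (0.46) and UNG (0.29) least. E2F2 was at 0.74 without core replicate 1 and at 2.56 without core replicate 2, and UNG at 0.18 without core replicate 1.

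**Figure D3:**
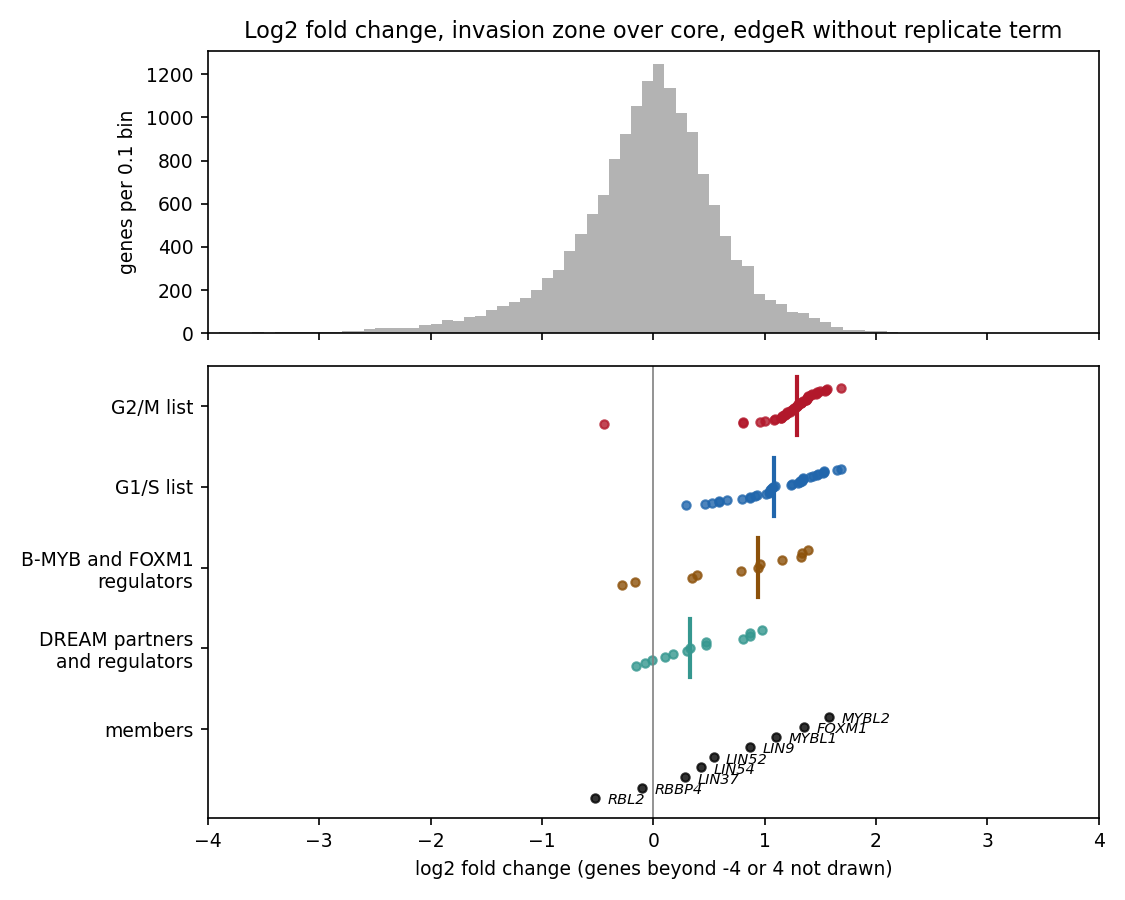
Upper panel, histogram of the log2 fold change (horizontal axis) of the 15529 genes tested, of which 28 beyond 4 in either direction are not drawn. Lower panel, each gene of the 4 lists as a point with the list median as a bar, and the 9 members by name. MYBL2, FOXM1 and MYBL1 lie among the G2/M and G1/S genes (medians 1.29 and 1.08). LIN9 (0.87), LIN52 (0.54) and LIN54 (0.43) lie between these medians and that of the DREAM partners (0.33). LIN9 is above some genes of both lists, such as CKAP2 (0.80) and SLBP (0.46). LIN37 (0.28) lies just below the median of the DREAM partners, and RBBP4 and RBL2 lie below 0.

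The log2 ratio between zones was higher in replicate 1 than in replicate 2 for 47 of the 48 G2/M genes and 35 of the 38 G1/S genes, as it was for the 3 factors. It was higher in replicate 1 for 9 of the 11 genes listed with the B-MYB and FOXM1 regulators and for 7 of the 13 DREAM partners. The share over all genes was not computed. The median log2 ratio over the G2/M list was 1.77 in replicate 1 and 1.00 in replicate 2, and over the G1/S list 1.43 and 0.94. Over the list with the B-MYB and FOXM1 regulators it was 1.32 and 0.70, and over the DREAM partners 0.38 and 0.30. Over all genes tested the median was -0.0020 in replicate 1 and -0.015 in replicate 2.

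**Figure D4:**
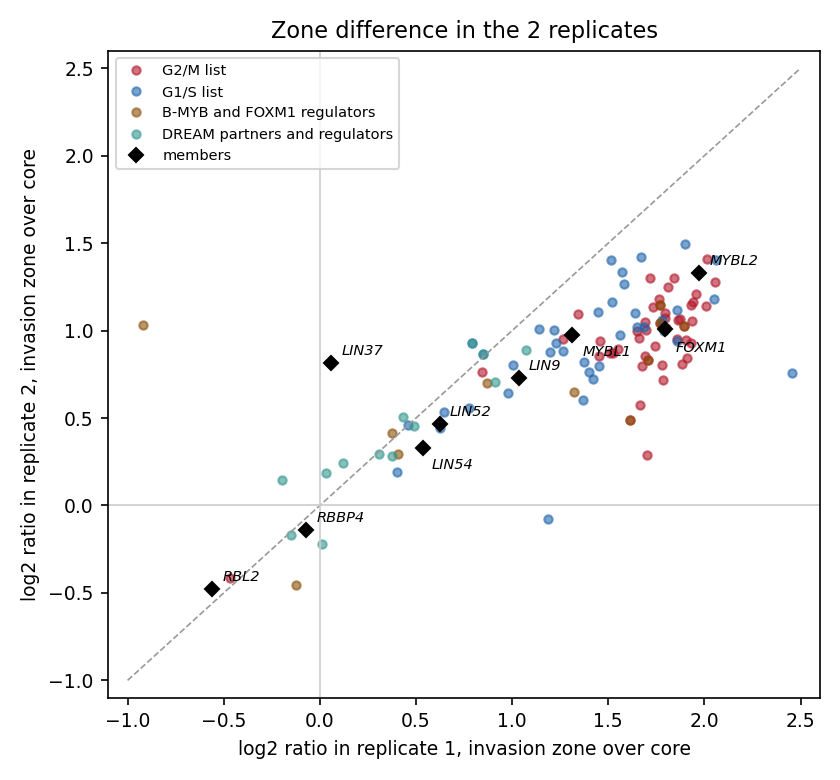
Log2 ratio of the invasion zone over the core in replicate 1 (horizontal axis) and in replicate 2 (vertical axis) for the members (diamonds) and the 4 lists (circles), with equality as the dashed line. Nearly all G2/M genes lie below the line, MYBL2 (1.97 and 1.33) and FOXM1 (1.80 and 1.01) among them, while RBBP4 and RBL2 lie near the line below 0.

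To show the element that ties MuvB to these genes, promoter stretches of 4 genes of the G2/M list are given, namely the cyclins CCNB1 and CCNB2, the anaphase activator CDC20 and the kinase PLK1. Each is the 80 bases before the RefSeq start on GRCh38.p14, plus strand, with the CHR letters in capitals. The positions are chr5:69167070-69167149, chr15:59105066-59105145, chr1:43358901-43358980 and chr16:23678809-23678888.
CCNB1: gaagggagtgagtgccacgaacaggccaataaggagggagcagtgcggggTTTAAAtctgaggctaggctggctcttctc
CCNB2: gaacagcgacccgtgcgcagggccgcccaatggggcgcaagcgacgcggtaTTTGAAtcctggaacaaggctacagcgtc
CDC20: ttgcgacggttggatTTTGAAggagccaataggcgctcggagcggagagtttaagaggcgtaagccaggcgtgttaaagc
PLK1: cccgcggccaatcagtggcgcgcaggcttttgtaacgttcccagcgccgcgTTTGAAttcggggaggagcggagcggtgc
The element begins 29 or 30 bases before the start in CCNB1, CCNB2 and PLK1 and 65 bases before it in CDC20.

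Across the lists, TTTGAA or TTTAAA on either strand was found in a promoter window of 37 of the 42 G2/M genes with a RefSeq window (88.1%), of 6 of 31 G1/S genes (19.4%) and of 21.8% of the 10050 tested genes with a window, and in 24.0% of all windows. The E2F-type letters GGCGGGA showed the opposite split, with 20 of 31 G1/S genes (64.5%), 13 of 42 G2/M genes (31.0%) and 29.8% of tested genes. The Myb letters CAACNG or TAACNG were found in 66.7% of G2/M genes, 45.2% of G1/S genes, 51.3% of tested genes and 46.2% of all windows. The forkhead letters TAAACA were found in 9.52%, 9.68%, 10.4% and 12.3%. A TTTAAA element can share letters with TAAACA where the sequences run on, while the other motifs were searched independently. Both lists were compiled from genes known as targets, some of them through these elements, so the shares describe the lists and carry no test. Among the members, the MYBL2 window held the E2F-type letters and neither the CHR, the Myb nor the forkhead letters. The E2F-type letters were not particular to MYBL2, being also in a window of each of the 5 MuvB subunits. They were in no window of RBL2. Windows of LIN9, LIN37, LIN54 and RBL2 held the CHR letters. A window without a match says only that these letters were not in it.

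**Figure D5:**
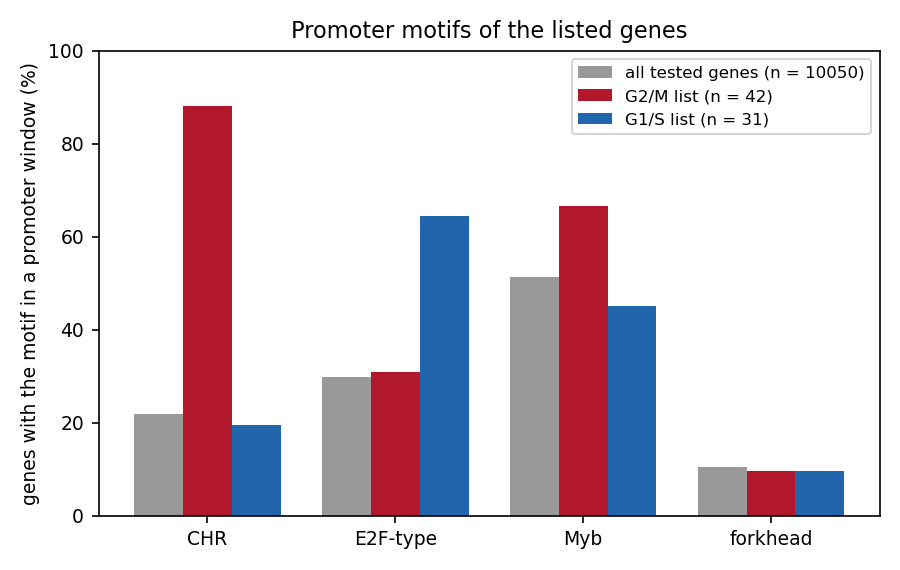
Share of genes, in percent, with each motif in a promoter window, for all tested genes with a RefSeq window (10050), the G2/M list (42) and the G1/S list (31). The CHR bar of the G2/M list reaches 88.1% against 21.8% of tested genes, and the E2F-type bar of the G1/S list 64.5% against 29.8%.

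The genes whose pattern was most like that of MYBL2, by the root mean square difference of centred log2 CPM over the 4 libraries, were MARCH4 (0.036), CDC45 (0.042) and FANCD2 (0.056). MARCH4, a membrane-bound ubiquitin ligase, had 13.5 and 26.7 CPM in the core, against 49.5 and 67.4 CPM in the invasion zone, CDC45, part of the replicative helicase, 8.36 and 17.4 against 35.1 and 46.1, and FANCD2, of the Fanconi pathway, 7.27 and 13.6 against 28.3 and 37.4. Those most like FOXM1 were NUSAP1 (0.027), a spindle protein, C17orf53 (0.040) and RRM2 (0.042), a subunit of ribonucleotide reductase. NUSAP1 had 30.9 and 56.2 CPM in the core, against 108 and 118 CPM in the invasion zone. With 4 libraries many genes share such a pattern, and the order among them is a description.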

How the data were processed

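Bulk RNA from 2 core and 2 invasion zone libraries was sequenced after SMARTer amplification. Reads of ribosomal RNA were taken out with Bowtie, and the authors aligned the rest to hg38 with STAR and deposited raw counts of uniquely mapped reads per gene from HTSeq-count, without normalization. Their tool versions, annotation release and strand setting: not given in the sources used here. Columns were matched to samples by zone and replicate number. Of 56306 rows, 2 repeats without counts were left out. In R 4.3.3, genes were kept by edgeR's filter (version 4.0.16, minimum count 10, minimum total 15), scaled by TMM and tested with glmQLFit and glmQLFTest by zone, with Benjamini-Hochberg adjustment over 15529 genes and a threshold of 0.05. Standard errors are the fold change over the root of F. DESeq2 1.42.0 and limma voom 3.58.1 were alternatives. Libraries of a zone were not duplicates (chi-square per degree of freedom 37.9 and 35.2).

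The members, lists and tests were chosen with earlier results of these data known. Named genes were all members, both regulator lists, the 3 most and 2 least different genes of each target list and the 3 genes most like MYBL2 and FOXM1. Gene positions and lengths came from GENCODE 44 (98.1% of identifiers), promoters from RefSeq by symbol. A few genes of the lists are not reported here. The fits were also run on simulated counts with known changes, as a check of the code. The spread of those counts was not set to that of these data, and no result here rests on them. Figures were drawn with matplotlib 3.10.9.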

Additional observations from a re-analysis of the deposited data

How the results depend on the processing

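With 2 libraries per zone and depths of 11789243 to 37591782 counts, small differences such as those of RBBP4 and LIN37 are not resolved. All members kept their direction under all 15 alternatives that give a fold change (135 of 135 values), and 28 of these passed the threshold. The numbers of higher and lower genes, members and listed pathway genes stayed at 0 with limma voom, the legacy edgeR route, RLE, upper-quartile or no composition factors, 10 counts in every library, thinning and the added 2-fold minimum. With the replicate block they were 3107 and 3116 genes, 6 and 1 members, and 94 and 1 listed genes, and with the block on thinned libraries 2798 and 2842, 6 and 1, and 94 and 1. Deviations from the zone mean correlated at 0.584 across genes between libraries of the same number. With 2 libraries per zone the deviations of replicate 2 mirror those of replicate 1, so this is a single value. Both libraries of replicate 1 were the deeper of their zone, and the part of depth in this value was not tested. No label says that a number marks a shared spheroid. With DESeq2 there were 815 and 866 genes, 3 and 0 members, and 80 and 0 listed genes. Without a low-count filter there were 96 and 203, 2 and 0 (MYBL2 and FOXM1), and 14 and 0, and at an unadjusted p with a 2-fold change 495 and 995, 3 and 0, and 70 and 0. The cause was not tested. Leaving out 1 library gave 8 to 862 higher and 108 to 1101 lower genes, 0 to 4 higher members and 1 to 81 higher listed genes, with 0 lower of either. No member was called without core replicate 1, and MYBL2, MYBL1, FOXM1 and LIN9 were called without core replicate 2, MYBL2, MYBL1 and FOXM1 without invasion zone replicate 1, and MYBL2 and FOXM1 without invasion zone replicate 2. The lone library of a zone was then assumed to vary like the other zone. Signs reversed for 2 named genes. CDKN1A was 0.00154 with DESeq2 and -0.29 to 0.23 with a library left out, and MYB was 0.10 with DESeq2, 0.053 by the legacy route, 0.34 thinned, 0.34 thinned with the block and -0.72 to 0.55 with a library left out.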

Other observations

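Outside the members and lists, the same promoter letters went with little difference in the zone values. Among tested genes with a RefSeq window, the 1529 with CHR letters and no E2F-type letters had a median log2 fold change of 0.0038, the 2345 with E2F-type letters alone 0.0035, the 606 with both 0.039 and the 5472 with neither -0.015. With the replicate block 364, 576, 155 and 1169 of them were higher in the invasion zone, in that order (21.4% to 25.6%), and 357, 531, 127 and 1231 were lower. These shares carry no test.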
